A study of Mus musculus with 26 samples.

Results

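The genes described here encode the proteins of oxidative phosphorylation: the subunits of NADH dehydrogenase (complex I), succinate dehydrogenase (complex II), the cytochrome bc1 complex (complex III), cytochrome c oxidase (complex IV) and ATP synthase (complex V), and the mobile carrier cytochrome c. They were taken by symbol, as every named probe whose symbol begins with Nduf, Cox4 to Cox8, Uqcr, Atp5 or Sdha to Sdhd, or with Cyc1 or Cycs. This gave 59 genes of 5838 named ones, measured by 68 of 7244 named probes among 25697 on the array. Complex I had 25 genes (Ndufa4, named as a subunit of complex I and now also counted with complex IV, is kept there), complex II had 3, complex III had 6, complex IV had 12, complex V had 12, and cytochrome c had 1. The files pair a probe with a gene only where the authors listed it as differing in at least 1 of their comparisons. Respiratory chain genes that never made those lists are therefore not counted here, and 66 of the 68 probes owe their name to a day 1 list. The calls over all members are set beside those over the 7176 other named probes, which were named by the same route.

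Mouse bone marrow macrophages from 2 month old male CD1 mice, either wild type (WT) or knocked out for Cox2 (KO), the gene of the prostaglandin-forming enzyme cyclooxygenase 2, were expanded in 100 ng/ml M-CSF, the growth factor of the macrophage lineage, and then cultured for 1 or 3 days. RANKL, the cytokine that turns these cells into bone-resorbing osteoclasts, was present in all groups but 1. On day 1 there were 4 arrays of WT cells with M-CSF alone, 3 of WT cells with M-CSF and RANKL at 30 ng/ml each, and 3 of KO cells with the same pair of factors. On day 3 there were 4 arrays each of WT cells with both factors, of WT cells that also received the Cox2 inhibitor NS398 at 0.1 µM, of KO cells with both factors, and of KO cells that also received 1 µM prostaglandin E2 (PGE2), a product of the enzyme. The doses of M-CSF alone on day 1 and of both factors on day 3 are not given in the sources used here. The labels call the replicates biological without tying each to a mouse, so the p-values measure the spread between these cultures. No probe was named for the deleted gene itself, so the genotype was not checked here.

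The respiratory chain passes electrons from NADH (complex I) or succinate (complex II) through ubiquinone to complex III, then by cytochrome c to complex IV, which reduces oxygen. Complexes I, III and IV pump protons out of the mitochondrial matrix, and complex V lets them back to make ATP. Osteoclasts are rich in mitochondria, and their differentiation is known to go with mitochondrial biogenesis driven by the coactivator PGC-1 beta (Ppargc1b) and the receptor ERR alpha (Esrra). The names can mislead: the genes Cox4i1 to Cox8a encode subunits of cytochrome c oxidase and have nothing to do with Cox2, the cyclooxygenase that was deleted. Cytochrome b of complex III, the catalytic subunits of complex IV and part of complexes I and V are encoded by mitochondrial DNA. None of 26 symbols listed for genes of mitochondrial DNA was among the named probes.

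The promoters of the members were searched for motifs that are known to recur at such genes. RefSeq promoters (build GRCm38.p6) were available for 50 of the 59 genes, and the 250 bases before the start were searched on both strands. The palindromic NRF1 motif was found at 7 of the 50 genes (14%), against 5.09% of 27025 promoters. The ETS motif CCGGAAGT, bound by GABP, was at 3 (6%, against 2.93%), and the cyclic AMP response element TGACGTCA at 3 (6%, against 1.62%). The GC box GGGCGG was at 18 (36%, against 32.9%), and the E-box CACGTG at 5 (10%, against 6.05%). The ERR motif TCAAGGTCA and the YY1 motif were at 0, against 0.366% and 0.289% of all promoters. None of these letter strings holds another of them. The 5 promoters printed here belong to genes whose values are given array by array below and hold an NRF1, ETS or cyclic AMP motif, which is in capitals. They lie on the minus strand at chr5:115348959-115349208 (Cox6a1), chr17:66101560-66101809 (Ndufv2), chr9:50603850-50604099 (Sdhd), chr10:80406822-80407071 (Uqcr, now Uqcr11) and chr6:50566570-50566819 (Cycs), each written 5′ to 3′ toward the gene.
Cox6a1: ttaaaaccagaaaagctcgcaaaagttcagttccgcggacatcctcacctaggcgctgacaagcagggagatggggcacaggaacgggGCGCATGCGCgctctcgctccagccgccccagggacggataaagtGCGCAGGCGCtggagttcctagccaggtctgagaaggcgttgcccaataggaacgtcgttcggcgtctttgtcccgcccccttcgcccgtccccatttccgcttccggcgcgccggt
Ndufv2: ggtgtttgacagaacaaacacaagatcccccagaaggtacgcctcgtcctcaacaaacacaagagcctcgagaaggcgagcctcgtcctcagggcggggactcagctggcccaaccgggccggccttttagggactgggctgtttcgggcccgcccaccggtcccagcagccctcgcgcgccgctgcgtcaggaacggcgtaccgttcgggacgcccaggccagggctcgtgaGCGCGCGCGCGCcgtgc
Sdhd: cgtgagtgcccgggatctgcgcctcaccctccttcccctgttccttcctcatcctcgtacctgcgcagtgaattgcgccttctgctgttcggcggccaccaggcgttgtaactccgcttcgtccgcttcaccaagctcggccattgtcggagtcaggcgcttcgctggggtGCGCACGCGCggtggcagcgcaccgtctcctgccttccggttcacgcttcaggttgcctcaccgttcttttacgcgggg
Uqcr: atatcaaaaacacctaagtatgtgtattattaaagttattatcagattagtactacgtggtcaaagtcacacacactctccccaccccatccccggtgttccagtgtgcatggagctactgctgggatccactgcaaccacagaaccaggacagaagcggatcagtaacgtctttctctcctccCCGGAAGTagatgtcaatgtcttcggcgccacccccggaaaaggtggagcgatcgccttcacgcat
Cycs: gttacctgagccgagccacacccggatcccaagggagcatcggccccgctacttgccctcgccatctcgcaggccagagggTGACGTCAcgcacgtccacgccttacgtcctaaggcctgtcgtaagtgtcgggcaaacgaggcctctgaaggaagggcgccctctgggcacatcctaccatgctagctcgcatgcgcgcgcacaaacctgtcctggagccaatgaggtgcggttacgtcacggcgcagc

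Cox6a1 holds 2 separate NRF1 matches, Ndufv2 2 that overlap in a run of alternating bases, and Sdhd 1. Uqcr holds the ETS match, and Cycs the cyclic AMP match. A match describes these letters only, and no binding was measured. The shares were set beside all promoters and not beside those of other named genes, so they say nothing on the day 1 changes.

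Values are bead-array intensities on a linear scale, log2 transformed for tests. All 68 probes passed the filter on low signal on both days, and where the authors' deposited tables gave a detection p-value for a member, on either day, it was at most 0.0125. The 2 days were normalized separately, so levels are compared within a day only. The intensities of the members spanned the whole scale: on day 1 in WT cells with M-CSF alone the group means ran from 433 (Cycs, cytochrome c) and 472 (Cox6a2, the heart and muscle form of a complex IV subunit) to 57385 (Atp5b, the catalytic beta subunit of ATP synthase). Atp5b sat near the top of the scale, whose highest value on day 1 was 71707, so that a change in it may be understated. Intensities of different probes are not compared as amounts of RNA.

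RANKL raised most of the named members on day 1. Of the 59 genes, 51 (86.4%) rose in WT cells with RANKL over M-CSF alone, 1 fell and 7 did not pass the test (limma, Benjamini-Hochberg adjusted p under 0.05 over all 17211 probes tested). Among the other named probes 33.9% were called higher and 41.8% lower, and among all probes 17% and 20.7%. Of the 68 member probes 66 were named because a day 1 list held them, which favours a high share of calls. All probes include unnamed ones, so their share is not on an equal footing. The median change of the members was 0.46 on the log2 scale (1.37-fold), and that of the other named probes was -0.11. The rise was spread over all 5 complexes, with medians of 0.43 for complex I, 0.54 for complex II, 0.50 for complex III, 0.47 for complex IV and 0.54 for complex V, and the number called higher was 23 of 25, 3 of 3, 6 of 6, 9 of 12 and 9 of 12.

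The day 1 arrays of a group lay close together. The mean log2 intensity over all members was 12.68 to 12.77 on the 4 WT arrays with M-CSF alone, 13.18 to 13.22 on the 3 with RANKL and 12.81 to 12.87 on the 3 KO arrays with RANKL. The 3 groups did not overlap. The mean of 37 named cytosolic ribosomal protein probes went the other way, from 13.78 to 13.84 with M-CSF alone, to 13.55 to 13.57 in WT with RANKL, with 13.68 to 13.69 in KO.

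**Figure D1:**
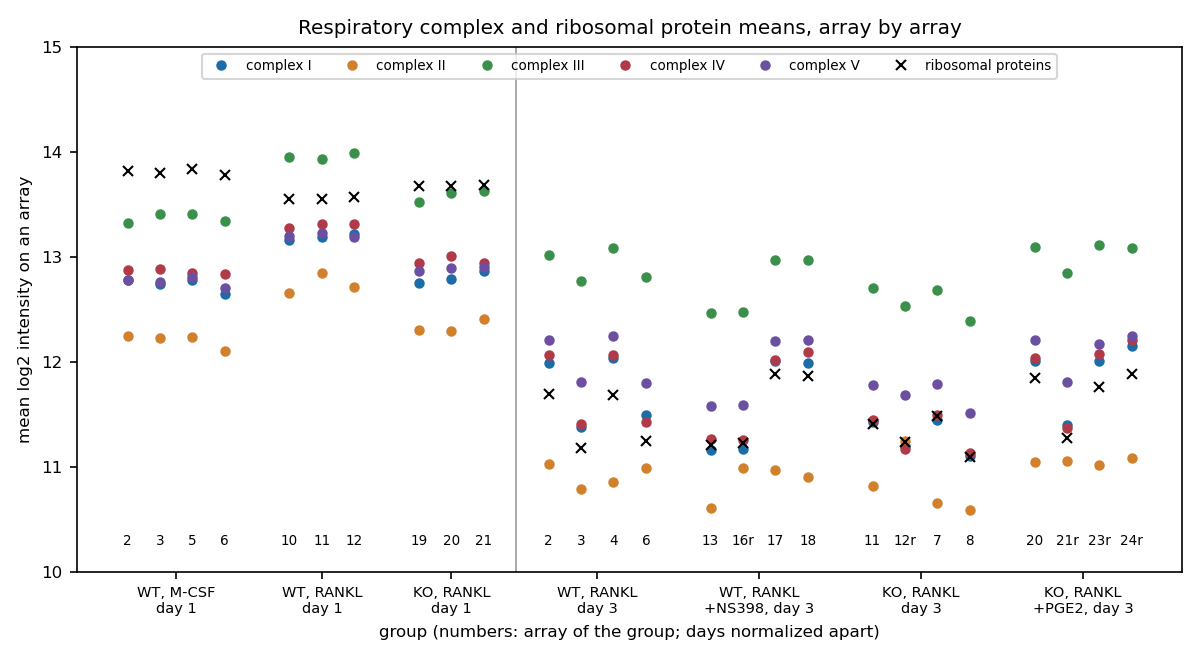
Mean log2 intensity of the subunits of each complex (coloured points) and of 37 ribosomal protein probes (crosses) on every array, by group, with array numbers along the bottom. All complexes stand higher in WT cells with RANKL than in the other day 1 groups, and on day 3 complexes I, III, IV and V and the ribosomal proteins split the arrays of a group into high and low ones, while complex II does so less.

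In complex I, the 25 genes were all above 0 and 23 passed. Ndufv1 and Ndufc1 had the smallest p-values. Ndufv1 carries the flavin that takes the electrons from NADH. Its intensity was 7820, 8091, 8234 and 7161 with M-CSF alone and 12294, 12408 and 12408 with RANKL, a rise of 0.66 ± 0.084 (log2, SE; limma adjusted p = 1.75e-06). The groups were well apart. Ndufc1, an accessory subunit of the membrane arm, read 15014, 13891, 14694 and 14735 with M-CSF alone and 21587, 22063 and 23845 with RANKL, a rise of 0.62 ± 0.082 (limma adjusted p = 2.49e-06), and a weaker probe of the gene rose by 0.78 ± 0.085. The accessory subunit Ndufb3 had the largest rise of the complex, 0.84. The core subunits, those shared with the bacterial enzyme, had a median of 0.56 over 6 genes, and 5 of them were called; the other 19 genes had a median of 0.39 and 18 were called. The 2 that did not pass were the accessory subunit Ndufa7 (0.13, limma adjusted p = 0.216) and the iron-sulphur core subunit Ndufs8 (0.15, limma adjusted p = 0.161). Their groups nonetheless did not overlap: Ndufs8 read 8374 to 9016 with M-CSF alone and 9384 to 9676 with RANKL.

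Complex II, the entry point for electrons from succinate, was measured through Sdhb, Sdhc and Sdhd, and all 3 rose. Sdhc, a membrane anchor, read 8408, 7785, 8625 and 7387 with M-CSF alone and 11837, 11614 and 11496 with RANKL, a rise of 0.54 ± 0.085 (limma adjusted p = 3.04e-05). Sdhd, the other anchor, read 1963, 1828, 1844 and 1528 against 2696, 3293 and 2709, a rise of 0.69 ± 0.11 (limma adjusted p = 3.36e-05). Both were apart from the M-CSF arrays. Sdhb, the iron-sulphur subunit, rose by 0.38 on its stronger probe and 0.68 on the weaker one.

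The largest change of all members was in complex III. Cyc1, the subunit whose haem hands electrons to cytochrome c, read 4413, 4728, 4770 and 5202 with M-CSF alone and 11296, 10493 and 11322 with RANKL, a rise of 1.21 ± 0.089, or 2.31-fold (limma adjusted p = 4.67e-10). The lowest RANKL array was above the highest M-CSF array by a wide margin. Uqcr, a small subunit of the complex, read 14044, 15645, 16549 and 16480 against 23781, 23912 and 24523, a rise of 0.62 ± 0.090 (limma adjusted p = 8.89e-06). The other 4 genes, Uqcrb, Uqcrh and the core proteins Uqcrc1 and Uqcrc2, rose by 0.31 to 0.54. Cytochrome c itself (Cycs), at the low end of the scale, rose by 0.44 ± 0.11 from 417, 375, 481 and 458 to 623, 641 and 500 (limma adjusted p = 0.00327), a smaller change than that of the subunit that feeds it.

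Complex IV was the one complex with calls in both directions. Subunits VIa and VIIa each exist in a widespread form and in a form named for heart and muscle. Cox7a1, the heart and muscle form of subunit VIIa, rose from 474, 460, 576 and 566 to 1171, 1091 and 1176, by 1.15 ± 0.099 or 2.22-fold (limma adjusted p = 5.76e-09). Cox7a2, the widespread form, rose from 1565, 1459, 1470 and 1323 to 2509, 2783 and 2748, by 0.88 ± 0.089 (limma adjusted p = 6.25e-08). Both isoforms of this subunit thus rose. In subunit VIa the forms went opposite ways. Cox6a1, the widespread form, rose from 29412, 26912, 29412 and 25988 to 35316, 33749 and 36054, by 0.33 ± 0.087 (limma adjusted p = 0.00463). Cox6a2, the heart and muscle form, fell from 489, 509, 415 and 475 to 257, 315 and 299, by 0.70 ± 0.095 or 1.63-fold (limma adjusted p = 4.29e-06), and was the only member called lower. Its signal was low, with a detection p-value of 0.0125 in WT cells with RANKL in the authors' deposited table. Cox7a2l, related to subunit VIIa and known as an assembly factor of respiratory supercomplexes, rose from 6668, 8205, 7311 and 6663 to 10892, 11333 and 13728, by 0.73 ± 0.099 (limma adjusted p = 4.05e-06). Cox4i1 and Cox5b, 2 of the brightest probes of the set, were above 0 (0.20 and 0.18) without passing the test (limma adjusted p = 0.0635 and 0.112).

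In complex V the 5 genes counted here with the F1 part (the head, its rotor and Atp5o) were all called higher. Atp5o, the subunit that joins head and stalk, changed most, from 1041, 1024, 1005 and 906 to 1904, 1967 and 1967, a rise of 0.97 ± 0.090 or 1.96-fold (limma adjusted p = 1.86e-08). Atp5c1, the rotating gamma subunit, rose from 14579, 13355, 13391 and 14208 to 21224, 21675 and 21542, by 0.63 ± 0.082 (limma adjusted p = 2.32e-06). Atp5d, the delta subunit of the rotor, rose by 0.55 ± 0.084 (limma adjusted p = 2.08e-05). Atp5b rose by 0.21, near the top of the scale. Of the 6 genes of the membrane part, Atp5f1, Atp5g1, Atp5j and Atp5l rose by 0.53 to 0.64, and Atp5h and Atp5j2 did not pass (0.25 and 0.19, limma adjusted p = 0.0564 and 0.0786). Atp5j had a second, weaker probe that stood at 0.083 (limma adjusted p = 0.574), so its 2 probes did not give the same call. Atp5s, a factor associated with the complex rather than a subunit of it, stood at -0.19 (limma adjusted p = 0.224).

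**Figure D2:**
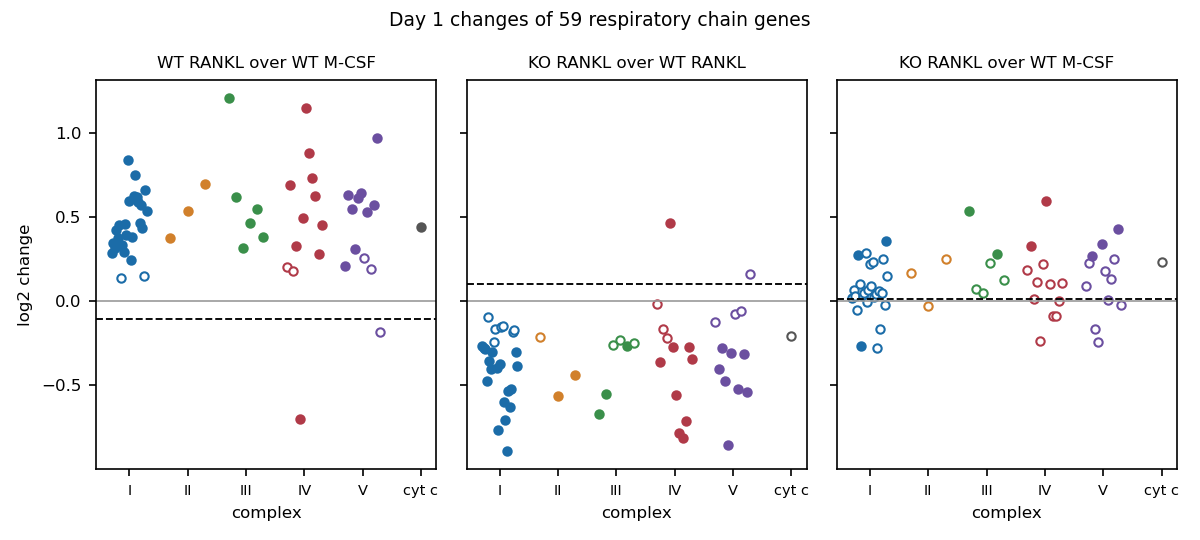
Log2 change of each of the 59 genes on day 1, 1 point per gene, by complex, for WT with RANKL over WT with M-CSF alone (left), KO with RANKL over WT with RANKL (middle) and KO with RANKL over WT with M-CSF alone (right). Filled points passed limma's test at adjusted p 0.05, and the dashed line is the median of the other named probes. Nearly all points lie above 0 on the left and below 0 in the middle, and on the right they scatter around a median of 0.09.

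KO cells with RANKL had lower levels of most of the set than WT cells with RANKL on day 1. Of the 59 genes 39 (66.1%) were lower, 1 was higher and 19 did not pass, against 30.9% lower and 39.5% higher among the other named probes and 14.9% and 18.9% among all probes. The median was -0.31 on the log2 scale (1.24-fold lower), and 0.10 for the other named probes. Complex I had 18 of 25 genes lower, complex II 2 of 3, complex III 3 of 6, complex IV 8 of 12 and complex V 8 of 12, with medians of -0.36, -0.44, -0.27, -0.31 and -0.31. This comparison and the last one share the 3 WT arrays with RANKL, so a gene that read high on those arrays moves in both. The limit set by naming from day 1 lists holds here too.

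Atp5f1, a subunit of the ATP synthase stator, was at -0.86 (limma adjusted p = 2.17e-06). Cox7a2l read 6876, 6759 and 6663 in KO against 10892, 11333 and 13728 in WT, a difference of -0.82 ± 0.11 (limma adjusted p = 3.04e-06). Cox7a2 read 1679, 1470 and 1522 in KO, lower by 1.72-fold (limma adjusted p = 1.28e-06). Ndufc1 read 15066, 15031 and 14459 in KO, lower by 1.51-fold (limma adjusted p = 1.39e-05). For these 3 genes the KO arrays lay at or near the range of the WT arrays without RANKL.

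Other members were lower in KO than in WT with RANKL and still above the cells without it. Cyc1 read 6551, 7552 and 6693 in KO, 1.59-fold below WT with RANKL (limma adjusted p = 8.97e-06) and 1.45-fold above M-CSF alone (limma adjusted p = 0.000159). Cox7a1 read 716, 853 and 771, 1.47-fold below (limma adjusted p = 0.000282) and 1.51-fold above (limma adjusted p = 0.00018). Atp5o read 1271, 1507 and 1250, 1.45-fold below (limma adjusted p = 0.000148) and 1.35-fold above (limma adjusted p = 0.00173). Ndufv1 read 9437, 10410 and 10216, 1.24-fold below (limma adjusted p = 0.0117) and 1.28-fold above (limma adjusted p = 0.00488). In all 4 genes the 3 day 1 groups did not overlap.

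Sdhc read 7552, 7803 and 8252 in KO, 1.48-fold below WT with RANKL (limma adjusted p = 4.5e-05), and Sdhd read 1877, 2049 and 2493, 1.36-fold below (limma adjusted p = 0.00622). Uqcr read 16745, 17651 and 15014, 1.46-fold below (limma adjusted p = 0.00011). Atp5c1 read 16844, 16480 and 15336, 1.33-fold below (limma adjusted p = 0.000977), and Ndufv2, a core subunit of the NADH-binding part, read 11614, 11700 and 12050 against 15593, 14890 and 15806, 1.31-fold below (limma adjusted p = 0.00155). Cox6a2 was again the exception: it read 394, 418 and 386 in KO, higher than in WT with RANKL by 0.46 ± 0.10 (limma adjusted p = 0.00117). Members that did not pass included Cox4i1 (-0.02), Atp5b (-0.12), Cox6a1 (-0.22), Sdhb (-0.21) and Cycs (-0.21), with limma adjusted p-values of 0.903, 0.325, 0.0786, 0.117 and 0.208. The second probe of Cox6a1 did pass, at -0.32.

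In a comparison that the study did not list, KO cells with RANKL against WT cells given no RANKL, 9 members were higher and 1 lower, with a median of 0.09. Of the other named probes 14.6% were higher and 17.4% lower (7.24% and 8.47% of all probes), and their median was 0.01. At 15.3% the share of members called higher was near that of the other probes. The 9 comprised Ndufa4, Ndufv1, Cyc1, Uqcrc2, Cox5a, Cox7a1, Atp5d, Atp5g1 and Atp5o. Ndufa7 was the member called lower: it read 6719, 7111 and 7249 in KO, below the 8226 to 8659 of M-CSF alone and the 8936 to 9518 of WT with RANKL (-0.27 and -0.40, limma adjusted p = 0.0249 and 0.000859). The weaker probe of Sdhb was also higher, at 0.52 (limma adjusted p = 0.0023), while its stronger probe, which counts here, was not called. Leaving out KO array 20 or 21 brought the 9 down to 5.

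The counts moved with the normalization, for the members and for the other probes. Under cyclic loess the members called by RANKL numbered 55 higher and 1 lower, and those lower in KO 46, with a median of -0.37. The other named probes called in the RANKL comparison then split 36.5% higher to 37.2% lower, and in the KO comparison 32.7% higher to 34.5% lower.

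Genes that work with the complexes were counted from lists of symbols. Of 37 assembly factors, which the symbol rule does not take in, 14 were named: RANKL raised 9 and lowered 2, and KO was lower in 6 and higher in 1. The other named probes, which include these lists, had 33.9% higher and 41.8% lower with RANKL. In KO they had 39.5% higher and 30.9% lower. Cox17, the copper carrier for complex IV, was at 0.75 with RANKL (limma adjusted p = 1.33e-06) and at -0.87 in KO (limma adjusted p = 5.74e-07), and Ttc19, of complex III, was at 0.71 and -0.58. Of 24 genes of electron entry, ubiquinone synthesis, ATP export and coupling, 16 were named, with 9 higher and 4 lower with RANKL and 3 higher and 9 lower in KO. Gpd2, the mitochondrial glycerol phosphate dehydrogenase that feeds electrons to ubiquinone, was at 1.66 with RANKL and -1.82 in KO (limma adjusted p = 1.38e-12 and 1.88e-12). Slc25a3, the phosphate carrier that supplies complex V, was at 0.99 and -0.97. Atpif1, the inhibitor protein of complex V, went against the members, at -0.57 with RANKL (limma adjusted p = 1.29e-05) and 0.66 in KO (limma adjusted p = 7.11e-06).

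Of 19 regulators of mitochondrial biogenesis 7 were named, and they did not move as 1 group. With RANKL Ppargc1b was at 1.18 (limma adjusted p = 4.6e-09) and Esrra at 0.46 (limma adjusted p = 0.000164), while Tfb1m, Polrmt and Myc were lower, at -0.72, -0.40 and -0.31. In KO, Esrra was at -0.24 (limma adjusted p = 0.0469), Ppargc1b at -0.11 did not pass (limma adjusted p = 0.501), and Polrmt, the mitochondrial RNA polymerase, Tfam, which packages mitochondrial DNA, and Tfb2m were higher, at 0.52, 0.52 and 0.34.

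Markers of cell types differed in the same comparisons. The cultures carried macrophage markers (6 of 10 named), with summed intensities of 127718 to 142782 on day 1. Single macrophage markers moved in both directions: 4 were called higher and 2 lower with RANKL, and 1 higher and 3 lower in KO. The sum of 7 of 11 osteoclast markers was 9603 to 11128 with M-CSF alone, 110397 to 115250 in WT with RANKL and 66928 to 93455 in KO with RANKL. The sum of 8 of 10 neutrophil markers was 10479 to 11208, 82274 to 83966 and 41996 to 57427, mostly S100a8 and S100a9. The osteoclast and neutrophil sums, like the member means, were lowest with M-CSF alone and highest in WT with RANKL. The neutrophil markers did not follow their sum as a list. Of the 8, 3 were called higher and 4 lower with RANKL, and 6 higher and 2 lower in KO. Ltf and Ngp, granule proteins of neutrophils, were higher in KO (4.28 and 3.07). The sum of 5 of 9 stromal markers was 1871 to 1952, 2863 to 3150 and 5338 to 5887. The T and NK cell markers (2 of 7 named) summed to 433 to 475, 614 to 694 and 471 to 490, and the mast cell marker Hdc (1 of 5 named) read 209 to 247, 1654 to 1821 and 326 to 357. Hdc was at 2.91 with RANKL and -2.36 in KO (limma adjusted p = 2.41e-16 and 4.34e-14), so it too was highest in WT with RANKL. No B cell marker of 6 was named. No marker was at 0, since intensities keep their background. The part of these markers in the changes of the members was not tested, and in such cultures fewer cells of a type and less RNA per cell cannot be told apart.

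On day 3 the arrays of a group stood apart from each other, and this bears on every day 3 result. The mean log2 intensity over all members was 12.04 and 12.06 on WT arrays 2 and 4 and 11.52 and 11.58 on WT arrays 3 and 6. With NS398 it was 12.02 and 12.03 on arrays 17 and 18 and 11.30 and 11.34 on arrays 13 and 16r. With PGE2 it was 12.04, 12.05 and 12.17 on arrays 20, 23r and 24r and 11.54 on array 21r. The 4 KO arrays without PGE2 were all low, at 11.54, 11.24, 11.54 and 11.38 for arrays 7, 8, 11 and 12r. High and low arrays thus occurred within 3 of the 4 groups. The mean of the 37 ribosomal protein probes followed the same pattern, with 11.68 to 11.88 on the arrays named high and 11.09 to 11.48 on the others. What sets these arrays apart was not tested.

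The split touched the members unequally. The SD between arrays of a group, pooled over groups, had a median of 0.10 on day 1 and 0.41 on day 3 over the 59 genes, against 0.12 and 0.19 for the other named probes, and it was larger on day 3 for 57 genes. Small accessory subunits led: Ndufa3 had an SD of 0.74, Ndufa2 0.66, Cox7a1 0.65, Ndufa1 0.62 and Ndufa7 0.61. Ndufa3 read 7522 and 7302 on WT arrays 2 and 4 and 2762 and 2976 on WT arrays 3 and 6. Other members had a smaller SD, with 0.10 for Cox7a2l, 0.13 for Atp5s, 0.18 for Uqcrc1, 0.19 for Ndufa9 and 0.22 for Cyc1. The SD was 0.067 for Atp5b and 0.14 for Cox6a2, but Atp5b lay at the top of the day 3 scale and Cox6a2 near the median signal of all probes, where a spread shows less. A few ran the other way, as did Ndufv1, which read 7998 and 8811 on WT arrays 2 and 4 and 14035 and 15031 on WT arrays 3 and 6, and the core protein Uqcrc2, which read 17638 and 15109 against 20816 and 19930.

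**Figure D3:**
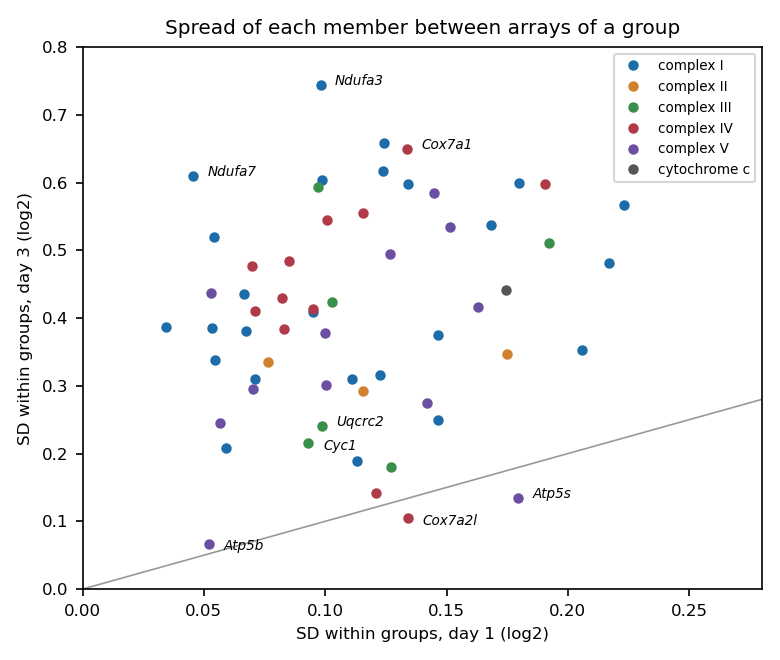
SD of log2 intensity between arrays of a group, pooled over the groups of a day, for each of the 59 genes, with day 1 on the horizontal and day 3 on the vertical axis and the line of equality in grey. All but 2 genes, Cox7a2l and Atp5s, lie above the line, and Ndufa3 is highest at 0.74.

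In KO against WT cells on day 3, 1 member passed the test, against 39 lower and 1 higher on day 1. These counts are not on an equal footing. Of the 68 member probes, 66 were named through a day 1 list and only 15 were on a day 3 list, which favours calls on day 1. The median SD between arrays of a group was also larger on day 3, at 0.41 against 0.10 on day 1. The part of each in the counts was not tested. Cyc1 was lower, with 6428, 7595, 7335 and 9641 in KO (arrays 7, 8, 11 and 12r) and 11950, 9519, 11774 and 10339 in WT (arrays 2, 3, 4 and 6), a difference of -0.50 ± 0.14 or 1.42-fold (limma adjusted p = 0.0446). The groups overlapped by 1 array. Of the 59 genes 53 were below 0 and none passed as higher, with a median of -0.41; among the other named probes 8.8% were higher and 7.57% lower (3.43% and 2.94% of all probes) and the median was 0.02. At an unadjusted p under 0.05, 11 of the 59 members were lower and 0 higher, against 16.8% and 21.1% of the other named probes. Cyc1 lost its call in 13 of 27 alternative settings, with adjusted p-values up to 0.153, and kept its direction in all of them. Whether the genotype difference itself changed between days was not tested, since the days were normalized apart.

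The members with the smallest p-value in the other complexes were Ndufs8 in complex I, Sdhb in II, Cox6a1 in IV and Atp5d in V. Atp5d read 3644, 2540, 4040 and 3687 in KO and 5301, 3945, 6961 and 4783 in WT (-0.58 ± 0.19, limma adjusted p = 0.0844). Ndufs8 read 4119, 3155, 3869 and 4060 in KO, and in WT 7985 and 8845 on the high arrays 2 and 4 and 3941 and 4280 on the low arrays 3 and 6 (-0.64 ± 0.24, limma adjusted p = 0.158). The KO arrays thus lay near the 2 low WT arrays. Cox6a1 did the same, with 9582 to 10850 in KO and 22872, 11774, 21946 and 10555 in WT (-0.66 ± 0.30, limma adjusted p = 0.257). Sdhb overlapped widely, with 3226, 2920, 3456 and 4861 in KO and 5642, 3644, 4861 and 3723 in WT (-0.31 ± 0.19, limma adjusted p = 0.435).

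To see the groups at a like ribosomal protein level, the fit was repeated with the mean of the 37 ribosomal protein probes as a covariate, an alternative chosen after seeing the data. A difference between groups in those probes is then taken out as well. With it, 11 of the 59 members were lower in KO and 0 higher, with a median of -0.23. The 11 were Ndufa3, Ndufs8, Cyc1, Uqcr, Cox5b, Cox7a1, Cox8a, Atp5d, Atp5h, Atp5j2 and Atp5o. The other named probes then had 10.1% higher and 9.62% lower. Cyc1 stood at -0.54 (limma adjusted p = 0.0225), Atp5o at -0.33 (limma adjusted p = 0.0118) and Cox7a1 at -0.49 (limma adjusted p = 0.0273).

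With the Cox2 inhibitor in WT cells, Cyc1 was lower as well. It read 7026, 9051, 6945 and 7238 on arrays 13, 16r, 17 and 18, all below the 9519 to 11950 of untreated WT cells, a difference of -0.53 ± 0.14 or 1.44-fold (limma adjusted p = 0.035). Arrays 17 and 18, named high, read 6945 and 7238, and the low arrays 13 and 16r read 7026 and 9051. Array 16r lay near the lowest untreated array, at 9519. The part of the array split in this difference was not tested. Cox7a2l was higher, with 4151, 4060, 4232 and 4119 against 2979, 3429, 3113 and 3622 in WT arrays 2, 3, 4 and 6, a difference of 0.34 ± 0.080 or 1.26-fold (limma adjusted p = 0.0173), and its groups did not overlap. No other member passed, where 7.67% of the other named probes were higher and 7.52% lower (2.97% each of all probes), and the median of the members was -0.14, with 5 lower and 1 higher at an unadjusted p under 0.05, where 15.2% and 17% of the other named probes were. Cyc1 lost its call in 7 and Cox7a2l in 3 of 27 alternative settings, and both kept their direction.

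With the ribosomal protein mean as a covariate, the inhibitor comparison had 12 of the 59 members lower and Cox7a2l higher, with a median of -0.26. The other named probes then had 12.7% higher and 10.7% lower. The 12 were Ndufa1, Ndufa3, Ndufa8, Ndufb8, Ndufs8, Cyc1, Uqcr, Cox5b, Atp5d, Atp5h, Atp5j2 and Atp5o. Ndufs8 had the smallest p-value, at -0.72 (limma adjusted p = 0.00174): it read 2851, 3511, 4547 and 4770 on arrays 13, 16r, 17 and 18. KO and inhibitor were both set against the same 4 WT arrays, so their values are given side by side and not as 2 separate results. Compared directly, KO and WT cells with NS398 differed in 0 members at adjusted p 0.05 by limma (smallest adjusted p = 0.188), against 0.962% higher and 0.962% lower among the other named probes (0.369% each of all probes). At an unadjusted p under 0.05, 1 member was higher and 3 lower, against 8.28% and 6.75% of the other named probes.

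PGE2 in KO cells went with 8 members higher and 2 lower, or 13.6% and 3.39%, against 14.5% and 18.6% of the other named probes and 6.04% and 7.47% of all probes. The share called higher was near that of the other probes. The median was 0.61, against -0.02, with 52 of 59 genes above 0. The KO arrays without PGE2 also entered the comparison of KO with WT, so a gene that read low on them moves in both. At an unadjusted p under 0.05, 38 of the 59 members were higher and 3 lower, against 23.9% and 27.5% of the other named probes. Those called higher were Ndufb9, Ndufs3, Ndufs8 and Ndufv2 in complex I, Cyc1 in III, Cox5a in IV, and Atp5d and Atp5o in V. Ndufv2 read 8616, 7252, 9306 and 9285 with PGE2 (arrays 20, 21r, 23r and 24r) and 5642, 4998, 6470 and 6588 without (0.54 ± 0.14, limma adjusted p = 0.015). Atp5d read 6699, 5487, 4880 and 6304 with PGE2 (0.76 ± 0.19, limma adjusted p = 0.0133). Atp5o read 1248, 983, 1302 and 1350 with PGE2 and 782, 676, 840 and 766 without (0.67 ± 0.19, limma adjusted p = 0.0307). In these 3 genes the groups did not overlap, array 21r included.

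Cyc1 read 9096, 13430, 11591 and 9476 with PGE2, a rise of 0.49 ± 0.14 or 1.40-fold (limma adjusted p = 0.0302), and here the otherwise low array 21r was the highest. Its groups overlapped, since KO array 12r read 9641. Ndufs8 read 6551, 5279, 6768 and 8616 with PGE2, a rise of 0.83 ± 0.24 (limma adjusted p = 0.0336). Cox7a1 had a larger change, 1.04 ± 0.41, with 1559, 560, 1405 and 1506 with PGE2 and 771, 522, 638 and 407 without, and did not pass (limma adjusted p = 0.11); array 21r lay among the KO arrays. The 2 members called lower were Cox7a2l, with 2676, 3188, 2738 and 2711 against 3104, 3332, 3519 and 3734 (-0.28 ± 0.080, limma adjusted p = 0.0312), and Atp5s, with 249, 309, 265 and 278 against 325, 351, 318 and 393 (-0.33 ± 0.096, limma adjusted p = 0.0295). Complex II had no call, and Sdhb (0.48, limma adjusted p = 0.11), Sdhc (0.06) and Sdhd (0.14) were above 0. Cycs ranged from 190 to 427 with PGE2 and from 150 to 321 without.

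The PGE2 count rests on single arrays. It was 22 higher without PGE2 array 21r, 4 without array 20, 3 without 23r, 2 without 24r, and 2, 0 and 4 without KO arrays 7, 8 and 11, while leaving out the NS398 array 16r, which enters only through the shared variance, gave 5. With the ribosomal protein mean as a covariate 1 member was higher, Cyc1 (0.59 ± 0.15, limma adjusted p = 0.0266), and 0 lower, the median was 0.11, and the other named probes had 9.07% higher and 10.6% lower. Adding the letter r of the array titles, whose meaning is not given, as a covariate gave 18 higher. For the letter r and for the fits without 1 array, the shares of other probes called are not given. Those counts therefore do not set the members apart from the other probes.

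**Figure D4:**
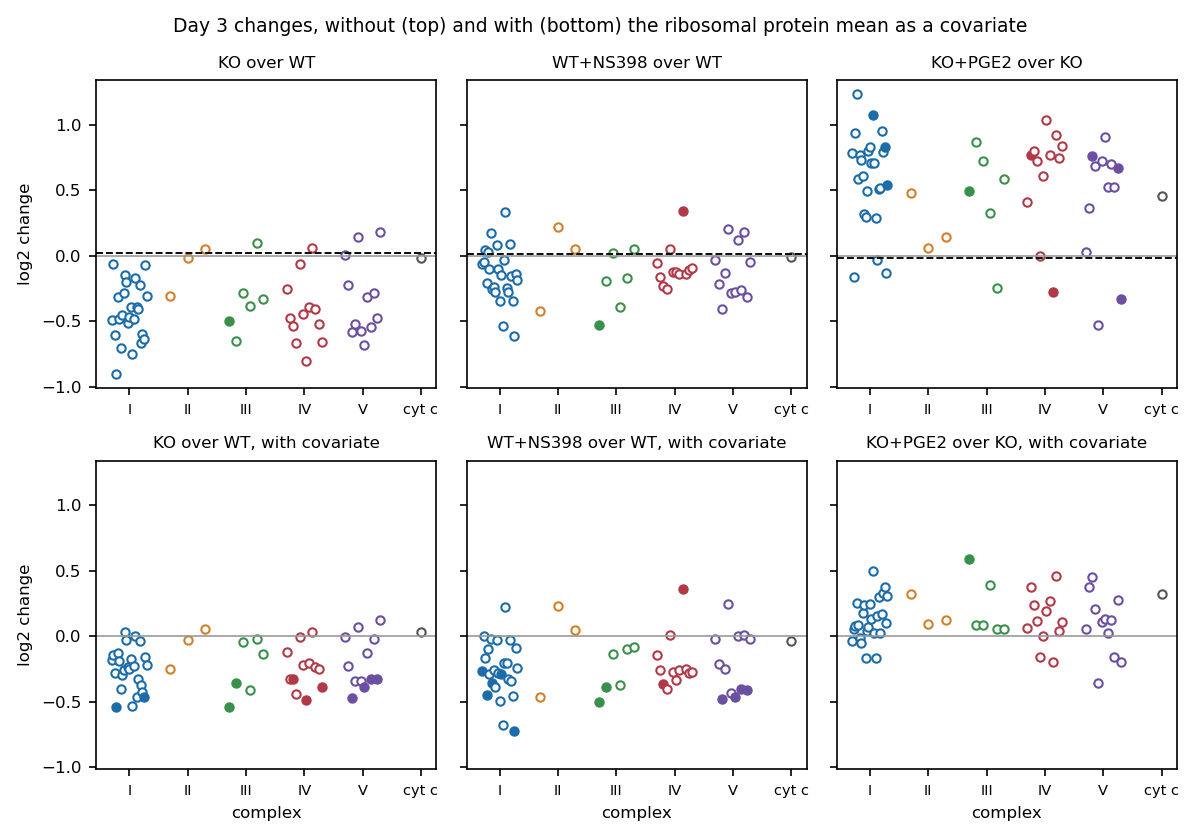
Log2 change of each of the 59 genes on day 3, by complex, for KO over WT, WT with NS398 over WT, and KO with PGE2 over KO, without (top) and with (bottom) the mean of 37 ribosomal protein probes as a covariate. Filled points passed limma's test at adjusted p 0.05, and the dashed line in the top panels is the median of the other named probes. With the covariate the PGE2 median falls from 0.61 to 0.11, and 11 and 12 genes are filled below 0 in the KO and NS398 panels.

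KO cells with PGE2 against WT cells without it, which the study did not list, had 0 members called either way by limma (smallest adjusted p = 0.286), against 1.68% higher and 1.44% lower among the other named probes (0.643% and 0.554% of all probes). At an unadjusted p under 0.05, 0 members were higher and 3 lower, against 9.81% and 11.1% of the other named probes. The median of the members was 0.19, and it was 0.077 without WT array 3 and 0.39 without PGE2 array 21r. Cyc1 stood at -0.01 ± 0.14 there, on arrays that also entered the KO and PGE2 comparisons, so the values are not separate results. A p-value that misses the threshold does not show that these groups are alike.

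**Figure D5:**
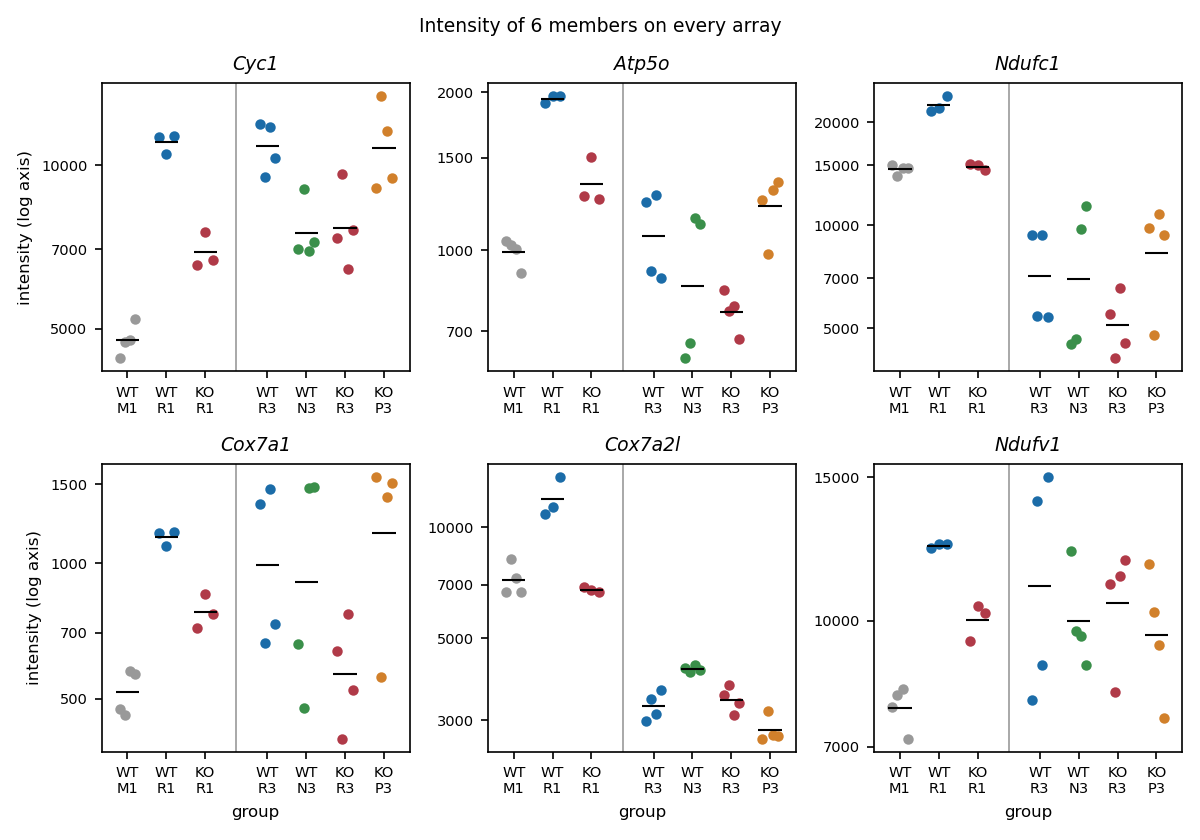
Intensity (log axis) of 6 members on every array, with the mean of log2 values as a bar. WT M1 is M-CSF alone, WT R1 and KO R1 RANKL on day 1, WT R3 and KO R3 RANKL on day 3, WT N3 RANKL with NS398 and KO P3 RANKL with PGE2; levels are not comparable across the grey line. On day 3 Cox7a2l varies little within groups, Atp5o, Ndufc1 and Cox7a1 split the WT, NS398 and PGE2 groups into high and low arrays, and in Ndufv1 the WT arrays that are low for those genes are the high ones.

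Across the day 3 comparisons the related genes gave few calls. KO and WT cells differed in 0 of the 14 assembly factors, and with PGE2 1 was higher. The shares of other named probes called are those given above for each comparison. Of the 7 regulators, Esrra and Ppargc1b were higher with PGE2 (0.79 and 0.57, limma adjusted p = 0.0231 and 0.029) and Myc lower (-0.47, limma adjusted p = 0.0168). Of the 16 genes of electron entry and transport, Coq10b, which binds ubiquinone, and the uncoupling protein gene Ucp2 were lower with PGE2 (-1.16 and -0.42), and Etfb, a subunit of the electron transfer flavoprotein, was higher (0.67). Cell type markers differed in all 3 of the study's day 3 comparisons. Of the 6 macrophage markers, 2 were called higher and 1 lower in KO. With NS398 1 was higher and 1 lower, and with PGE2 1 was higher and 2 lower. The neutrophil marker sum was 2468 to 3648 in WT, 1330 to 2030 with NS398, 1236 to 1451 in KO and 4553 to 8629 with PGE2, where most of it was S100a8. The stromal sum was 1221 to 1546, 776 to 818, 936 to 1004 and 1773 to 2348 in the same order, with 4 of 5 markers called lower with NS398, 2 lower in KO and 5 higher with PGE2. The osteoclast sum was 66582 to 86364, 56233 to 71546, 66640 to 80307 and 60249 to 77948, ranges that overlap. Of the 7 osteoclast markers, 2 were nonetheless called lower with PGE2, and 0 were called either way in KO or with NS398. Their part in the members' changes was not tested.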

How the data were processed

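RNA of 26 cultures was hybridised to Illumina bead arrays. The intensity values, 1 per probe and array, are deposited on a linear scale and were never at or below 0; the submitters' processing notes name GenomeStudio, and equal quartiles within each experiment point to quantile normalization per experiment. The authors' deposited comparison tables also hold group mean signals, detection p-values and a DiffScore, a signed score, for listed probes only (smallest absolute score 13.0); only symbols and detection p-values were used here. Day 1 (10 arrays) and day 3 (16 arrays) were handled apart. Intensities were log2 transformed, probes above an array's 40th percentile in at least as many arrays as the smallest group were kept (17211 and 18961), and limma 3.58.1 (R 4.3.3; lmFit and eBayes) fitted 1 mean per group over all arrays of a day, with Benjamini-Hochberg adjustment over all kept probes and a call at 0.05.

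Where a gene had several probes (7 genes), the one with the highest mean was used and the others were checked. Any member could be named; array values are given for the members with the smallest p-values per complex in 3 comparisons and those called against the rest. Of each related list the 2 genes with the smallest p-value per comparison could be named; Slc25a3, Atpif1, further regulators and other list genes beyond these were named after their values were seen. The members and lists were chosen with earlier results of these data known. Symbols matched RefSeq for all 59 genes, 4 of them as synonyms. Probe sequences were not used here, so related genes sharing a probe were not checked. The closing section gives the alternatives. One member gene is counted but not reported here by name.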

Additional observations from a re-analysis of the deposited data

Results flagged for a closer look

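In 125 sets of 4 array values or complex means, 7 had 1 array far from the other 3 by Dixon's criterion, which chance alone meets in about 1 of 20 sets. PGE2 array 21r accounts for 3 of them: it was low for Cox7a1 (560, the others 1405 to 1559) and for the complex III mean (12.85 log2, the others 13.09 to 13.11), and high for Cox7a2l (3188, the others 2676 to 2738). In the same group Sdhd stood high on array 24r (610, the others 386 to 419). Cyc1 was high on NS398 array 16r (9051, the others 6945 to 7238), Cox6a1 was high on KO array 7 of day 3 (10850, the others 9582 to 9776), and on day 1 the complex II mean was low on M-CSF array 6 (12.10 log2, the others 12.23 to 12.25). The cause of each was not tested.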

How the results depend on the processing

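No paired analysis was possible because the groups of one experiment share no replicate number; numbers shared between a day 1 and a day 3 group belong to arrays that are not compared.

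No called gene turned round under any alternative. The median over the members changed sign only with the ribosomal protein mean as a covariate, in 2 comparisons without any call: KO with PGE2 against WT (-0.09 in place of 0.19) and KO against WT with NS398 (0.01 in place of -0.27). On day 1, an adjusted p under 0.01 left 24 members lower in KO than in WT with RANKL, and cyclic loess moved that median to -0.37. Against M-CSF alone KO had 4 members higher and 0 lower at 0.01, and 2 lower with a filter at the 60th percentile, with an offset of 50, with cyclic loess, and with a trended, robust variance.

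On day 3, the count lower in KO was 0 with no filter, with the trended, robust variance, with only the groups compared and at 0.01, 6 with array weights, 2 with the suffix r and 11 with the ribosomal protein mean as a covariate. With NS398 both the higher and the lower call became 0 with the trended, robust variance and at 0.01, and the lower count was 2 with only the groups compared and 12 with the ribosomal protein covariate. With PGE2 the higher count was 5 with no filter and with the offset, 13 with array weights, 15 with only the groups compared, 18 with the suffix r, 1 with the ribosomal protein covariate and 0 at 0.01, and the median under that covariate was 0.11. The lower count with PGE2 was 1 with cyclic loess and with only the groups compared, and 0 with the trended, robust variance, the ribosomal protein covariate and at 0.01. KO with PGE2 against WT had 1 lower with the suffix r. The shares of other probes called under each setting are not given beside these counts, so the counts do not set the members apart from the other probes. The cause of these changes was not tested. The ribosomal protein setting was chosen after seeing the data.

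Leaving out 1 array at a time gave 45 to 50 members higher with RANKL on day 1 and 27 to 40 lower in KO. Against M-CSF alone the KO counts were 5 to 9 higher and 0 to 2 lower: 0 without KO array 19 or 20 or M-CSF array 3, and 2 without M-CSF array 5 or 6. On day 3 the count lower in KO was 0 to 3: 3 without WT array 3, 2 without KO array 12r or PGE2 array 21r, and 0 without WT arrays 2, 4 or 6, NS398 arrays 13, 17 or 18, or KO arrays 7 or 8. With NS398 the counts were 0 to 1 higher, 0 without WT array 2 or 4, and 0 to 2 lower: 2 without PGE2 array 21r or 23r, and 0 without WT arrays 2, 4 or 6 or NS398 arrays 13, 17 or 18. With PGE2 they were 0 to 22 higher and 0 to 3 lower: 3 without PGE2 array 21r, 1 without KO array 11, and 0 without PGE2 arrays 20, 23r or 24r or KO arrays 8 or 12r. The median ranged over -0.28 (without NS398 array 18) to -0.0014 (without array 13) with NS398, -0.52 to -0.32 in KO on day 3, 0.51 to 0.78 with PGE2, 0.077 to 0.39 for KO with PGE2 against WT, and -0.41 (without NS398 array 13) to -0.12 (without array 17) for KO against WT with NS398. Calls among the other probes are not given for the fits without 1 array either. Precision is limited by 3 or 4 arrays a group, and on day 3 by their spread.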
